A study of Mus musculus with 17 samples.

Results

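The Gadd45 family consists of 3 genes in mouse, Gadd45a, Gadd45b and Gadd45g, and all 3 were found by symbol among the 55471 genes of the count table. Each was described in 17 hippocampal RNA-seq libraries, 1 per mouse, from 6 groups made of 2 genotypes and 3 treatments. CBP-ifKO mice combine floxed Crebbp alleles with Camk2a-creERT2, a tamoxifen-inducible Cre recombinase expressed in excitatory neurons of the forebrain, so that glia and most interneurons keep an intact gene, and what remains is a truncated CBP without lysine acetyltransferase activity. Control mice were littermates that received tamoxifen as well. By the methods of the study they lack creERT2, whereas their labels name Camk2a_creERT2. All mice were males of 3 to 6 months, of strain C57BL/6 by the labels and C57BL/6J by the methods. Sal mice were injected with saline throughout. PTZ0 mice underwent the kindling protocol of repeated doses of pentylenetetrazole (PTZ, an antagonist of GABA-A receptors that causes seizures) and then received saline. PTZ45 mice underwent the same protocol and then received PTZ at 45 mg/kg. The last injection was 45 min before the hippocampus was taken. In the paper, all controls came to have seizures under this protocol, whereas no CBP-ifKO mouse reached the stage of progressive seizures. Kindled therefore refers to the protocol here, and genotype and seizures cannot be told apart in the PTZ groups. There were 3 libraries per group and 2 in Control PTZ45. The labels place Control Sal and Control PTZ0 in sequencing lane 3, CBP-ifKO Sal and Control PTZ45 in lane 4, and CBP-ifKO PTZ0 and CBP-ifKO PTZ45 in lane 5.

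Gadd45 proteins (growth arrest and DNA damage-inducible 45) are small acidic proteins without known enzymatic activity that act through partners. They bind and activate the kinase Map3k4 upstream of p38 and JNK, they bind Pcna, Cdkn1a and the Cdk1-cyclin B complex in cell cycle arrest, and they recruit repair enzymes to methylated DNA in active demethylation. Gadd45a is the classical p53 target of the family. Gadd45b is an immediate early gene of dentate granule cells, where it has been linked to demethylation at Bdnf and Fgf1, and Gadd45g is known as a gene induced by activity and by cytokines and as a regulator of differentiation.

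The genes lie on 3 chromosomes of build GRCm38, and each has 4 exons in its first annotated transcript (GENCODE M21). Gadd45a is at chromosome 6, 67035096 to 67037457, on the minus strand. Gadd45b is at chromosome 10, 80930073 to 80932204, and Gadd45g at chromosome 13, 51846678 to 51848468, both on the plus strand. An antisense noncoding gene, E230016M11Rik, overlaps 337 of the 1764 exonic bases of Gadd45a (19.1%), and the sources used here do not say whether counting used the strand. The sequences upstream of the 3 start sites are shown because the genes differ in their response, and each runs 5′ to 3′ on the strand of its gene from 250 to 21 bases before the RefSeq start (GRCm38.p6). Capitals mark the TATA box TATAAA, the E-box CACGTG, the CCAAT box and the octamer ATTTGCAT or its reverse complement ATGCAAAT, each searched on both strands. All of these but the TATA box were chosen after the sequences had been read.
Gadd45a, chr6:67037428-67037657, minus strand: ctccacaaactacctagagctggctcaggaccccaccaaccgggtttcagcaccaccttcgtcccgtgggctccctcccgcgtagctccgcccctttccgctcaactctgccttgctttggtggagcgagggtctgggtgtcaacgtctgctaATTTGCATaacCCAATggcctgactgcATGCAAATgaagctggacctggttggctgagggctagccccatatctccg
Gadd45b, chr10:80929841-80930070, plus strand: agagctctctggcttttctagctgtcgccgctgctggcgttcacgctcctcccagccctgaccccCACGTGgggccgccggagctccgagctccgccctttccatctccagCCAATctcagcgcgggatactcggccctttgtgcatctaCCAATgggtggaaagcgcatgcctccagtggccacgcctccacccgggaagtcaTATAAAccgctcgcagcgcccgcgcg
Gadd45g, chr13:51846425-51846654, plus strand: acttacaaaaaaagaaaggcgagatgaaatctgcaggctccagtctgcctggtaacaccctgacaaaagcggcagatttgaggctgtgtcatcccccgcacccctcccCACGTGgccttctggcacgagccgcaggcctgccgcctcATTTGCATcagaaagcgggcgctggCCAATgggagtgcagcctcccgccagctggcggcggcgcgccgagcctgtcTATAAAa

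TATAAA, the TATA box, was found once upstream of Gadd45b and once upstream of Gadd45g and not upstream of Gadd45a, and 11.8% of 32851 windows of the same length hold it. CACGTG, an E-box, was found once each upstream of Gadd45b and Gadd45g (5.35% of windows). It is also a match to the wider pattern CANNTG, which was found once upstream of Gadd45a, once upstream of Gadd45b and 3 times upstream of Gadd45g (63.5% of windows). CCAAT was found upstream of all 3 genes, with 2 matches at Gadd45b (32.2% of windows), and the octamer ATTTGCAT was found at Gadd45a, with 2 matches, and at Gadd45g, with 1 (1.53% of windows). No match lies upstream of any of the 3 genes to the cAMP response element TGACGTCA or its part TGACG, the AP-1 site TGANTCA, the Egr site GCGTGGGCG, the NF-kB site or the CArG box. Between 0.481% (GCGTGGGCG) and 15.9% (TGACG) of windows hold these 6 patterns. CG dinucleotides numbered 10 upstream of Gadd45a, 21 upstream of Gadd45b and 15 upstream of Gadd45g, against a median of 5 over the windows.

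The libraries held 5831992 to 18735643 counts each, and all 16 pairs of replicates showed spread beyond sampling of reads (chi-square divided by its degrees of freedom, 2.16 to 16.04). Crebbp averaged 2169 ± 201 normalized counts (counts divided by the DESeq2 size factor; SD, n = 8) in the control libraries and 1214 ± 94.95 (n = 9) in the CBP-ifKO libraries, without overlap. Esr1, whose ligand-binding domain is part of creERT2, was at 41.0 to 77.8 normalized counts in controls and at 703 to 941 in CBP-ifKOs. The paper gives a raised Esr1 as a feature of mice with Camk2a-creERT2, so that the control values go with the methods rather than with the labels. Defining markers of excitatory neurons, dentate granule cells and CA1 and CA3 pyramidal cells were present in every group. The summed level of 4 choroid plexus markers ranged from 421 to 43063 normalized counts between libraries and lay at 743 and 865 in Control PTZ45. In bulk tissue, fewer cells of a type and less RNA per cell cannot be told apart.

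Outside Control PTZ45, the family was expressed at low levels. As counts per kilobase of exon, scaled to the library total as in RPKM, Gadd45b stood at 3.07 ± 0.644 and Gadd45g at 3.66 ± 0.651, and Gadd45a at 0.895 ± 0.201 (SD, n = 15 libraries). These values rest on 24 to 104 reads per library for Gadd45b, 22 to 79 for Gadd45g and 9 to 37 for Gadd45a. In Control PTZ45 the corresponding means were 8.52 ± 0.674 for Gadd45b, 34.0 ± 4.86 for Gadd45g and 0.964 ± 0.0342 for Gadd45a (n = 2). Of the family's counts per kilobase, Gadd45g therefore made up 78.1% ± 1.299 in Control PTZ45, whereas its share lay between 45.9% and 51.2% in the other 5 groups. The share of Gadd45b in Control PTZ45 was 19.7% ± 0.937 and that of Gadd45a 2.24% ± 0.362.

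Gadd45g was the member with the highest counts after PTZ in controls. Its normalized counts were 562 and 469 in the 2 Control PTZ45 libraries. In Control Sal they were 55.3, 73.9 and 54.2, and in Control PTZ0 they were 43.9, 62.1 and 51.4. Both PTZ45 libraries thus lay more than 6-fold above every other control library. In CBP-ifKO mice the counts were 50.6, 45.7 and 49.5 in Sal, 49.9, 46.8 and 51.3 in PTZ0, and 38.9, 67.0 and 43.6 in PTZ45. The 3 CBP-ifKO groups overlapped with each other. The libraries of CBP-ifKO PTZ45 included the lowest value of all 17 (38.9) and 1 above 5 of the 6 controls without acute PTZ (67.0). In the order of group means, the 5 groups below Control PTZ45 ran from 61.1 ± 11.04 in Control Sal to 48.6 ± 2.603 in CBP-ifKO Sal, and each overlapped with the next.

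Gadd45b showed a smaller difference of the same direction. Its normalized counts were 183 and 167 in Control PTZ45, against 81.0, 72.6 and 74.1 in Control Sal and 65.0, 55.1 and 59.0 in Control PTZ0. These 3 control groups did not overlap, with Sal above PTZ0. In CBP-ifKO mice the counts were 52.5, 49.8 and 58.4 in Sal, 40.2, 67.8 and 41.0 in PTZ0, and 49.4, 50.0 and 77.8 in PTZ45. No CBP-ifKO group stood apart from another, and within PTZ0 and within PTZ45 a single library was well above its other replicates. The order of means after Control PTZ45 was Control Sal, Control PTZ0, CBP-ifKO PTZ45, CBP-ifKO Sal and CBP-ifKO PTZ0, and from Control PTZ0 downward each group overlapped with the next.

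Gadd45a was the least abundant member and the groups overlapped almost entirely. Its normalized counts were 12.5, 11.1 and 25.3 in Control Sal, 21.1, 19.9 and 20.9 in Control PTZ0, and 21.2 and 22.8 in Control PTZ45. In CBP-ifKO mice they were 23.7, 18.7 and 19.2 in Sal, 13.4, 22.9 and 16.6 in PTZ0, and 21.03, 24.99 and 17.7 in PTZ45. The group means ran from 16.3 ± 7.85 to 22.02 ± 1.13, and every group overlapped with the next in order. With 9 to 37 reads per library, the counting error of a single Gadd45a value averaged 21.1% to 25.7% of the value in each group, as large as or larger than the spread between replicates in 4 of the 6 groups.

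**Figure D1:**
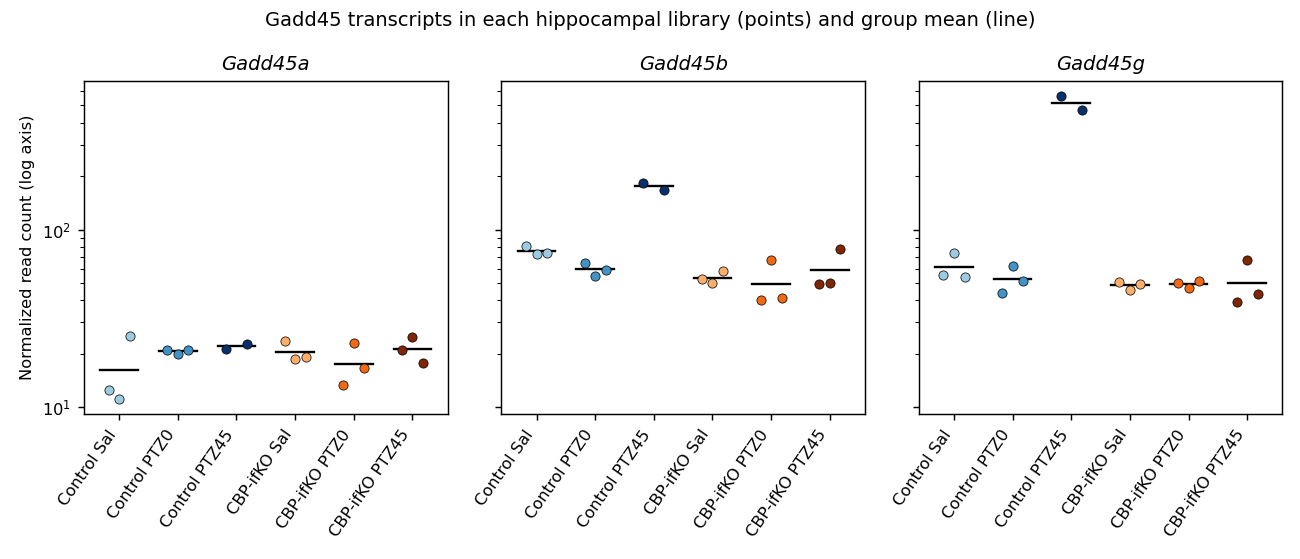
Normalized read counts (log axis) of Gadd45a, Gadd45b and Gadd45g in each library, with points for the 17 libraries and a line for each group mean. The 2 Control PTZ45 libraries stand above all others for Gadd45g (469 and 562) and Gadd45b (167 and 183), and not for Gadd45a.

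The response to PTZ in kindled controls was tested with the DESeq2 Wald test, and genes were called at a Benjamini-Hochberg adjusted p under 0.05. Against Sal, 2 of the 3 members were called, both higher, where 0.939% of 17367 genes tested were called higher. Gadd45g rose by 3.10 on the log2 scale (SE 0.190, adjusted p = 1.63e-56), an 8.55-fold difference with a 95% interval of 6.61 to 11.1. By absolute log2 difference it held rank 11 of the 13111 genes that averaged 50 or more normalized counts. Gadd45b rose by 1.20 (SE 0.219, adjusted p = 8.81e-06), or 2.30-fold with an interval of 1.71 to 3.09, and ranked 58. Without the first Control PTZ45 library its change was 1.13 and its DESeq2 adjusted p 0.0518, but that fit leaves 1 library in the group, which is assumed to vary like the Sal libraries. Gadd45a differed by 0.42 (SE 0.546, adjusted p = 0.970), and its interval, from −0.65 to 1.49, includes both a decrease and a more than 2-fold increase. In 31.9% of the genes averaging 10 or more normalized counts, the Control PTZ45 and Control Sal libraries did not overlap, and Gadd45b and Gadd45g were among these.

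Against PTZ0, the kindled controls that received saline, the same 2 members were called higher (1.18% of 17982 genes). These libraries share the PTZ45 group with the comparison above. Gadd45g was higher by 3.31 (SE 0.191, adjusted p = 5.17e-64) and Gadd45b by 1.55 (SE 0.230, adjusted p = 4.32e-09), and Gadd45a differed by 0.09 (SE 0.487, adjusted p = 0.994). Without the first PTZ45 library, where 1 library is left in that group, DESeq2 gave no adjusted p for either gene, and the log2 differences were 3.17 for Gadd45g and 1.48 for Gadd45b. All 3 members had higher normalized counts in both PTZ45 libraries than in the 3 PTZ0 libraries, for Gadd45a by a narrow margin (21.2 and 22.8 against 19.9 to 21.1), and in 33.3% of the genes averaging 10 or more these groups did not overlap.

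Kindling without an acute dose was compared within lane 3. Between Control PTZ0 and Control Sal none of the 3 members was called (0.00843% of 35602 genes were). The log2 differences were −0.35 (SE 0.229) for Gadd45b, −0.22 (SE 0.261) for Gadd45g and 0.33 (SE 0.455) for Gadd45a, each with an adjusted p of 0.9998 by DESeq2. The unadjusted p of Gadd45b, the smallest, was 0.131 by DESeq2 and 0.0471 by edgeR, which called none of them either (adjusted p = 0.922). The libraries of Gadd45b did not overlap, being lower in PTZ0, and 8.47% of the genes averaging 10 or more did not overlap in this comparison.

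In CBP-ifKO mice none of the 3 members was called between PTZ45 and Sal, where 0.294% of 19757 genes were called in either direction. The log2 difference was 0.03 (SE 0.312, 95% interval −0.58 to 0.64) for Gadd45g, 0.12 (SE 0.292, −0.45 to 0.69) for Gadd45b and 0.03 (SE 0.446, −0.84 to 0.91) for Gadd45a. The upper bounds correspond to 1.56-fold for Gadd45g and 1.62-fold for Gadd45b, both below the lower bounds of the same contrast in controls, 6.61-fold and 1.71-fold. These intervals come from separate fits, and those of the controls rest on 2 PTZ45 libraries. For Gadd45b the direct test of the difference, the interaction given below, was not called (DESeq2 adjusted p = 0.248 over Sal). Between PTZ45 and PTZ0, both in lane 5, the differences were 0.02 (SE 0.303) for Gadd45g, 0.24 (SE 0.309) for Gadd45b and 0.27 (SE 0.459) for Gadd45a, and none was called (0.0872% of 26374 genes were). Between PTZ0 and Sal they were 0.01 (SE 0.290), −0.12 (SE 0.306) and −0.23 (SE 0.469) for Gadd45g, Gadd45b and Gadd45a, and none was called (0.0112% of 35705 genes). The libraries of each member overlapped in all 3 comparisons, whereas 13.2%, 10.5% and 6.26% of the genes averaging 10 or more did not overlap in them, in the same order. In these 3 comparisons no member had an unadjusted p under 0.05 by DESeq2 or by edgeR. The same CBP-ifKO PTZ45 libraries did show a higher level of Fos, an immediate early gene named here after its values had been seen, at 163, 250 and 288 normalized counts against 13.4 to 34.0 in the 6 other CBP-ifKO libraries. In Control PTZ45 Fos was at 2915 and 2483.

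The difference between the genotypes in the PTZ response was tested as an interaction, in which a negative value means a smaller rise in CBP-ifKOs. For Gadd45g it was −3.07 over Sal (SE 0.315, adjusted p = 4.41e-19) and −3.29 over PTZ0 (SE 0.312, adjusted p = 1.29e-22). Of all genes tested, 0.329% were called lower in the interaction over Sal (69 genes) and 0.423% over PTZ0 (82 genes), and 0 were called higher, and Gadd45g ranked 5 and 4 by absolute size of the genes averaging 50 or more. For Gadd45b the interaction was −1.09 over Sal (SE 0.329, unadjusted p = 0.000957, adjusted p = 0.248) and −1.31 over PTZ0 (SE 0.361, adjusted p = 0.0646), and neither was called. Without the third CBP-ifKO PTZ45 library, the one at 77.8 normalized counts, both passed the threshold of DESeq2, with −1.33 (adjusted p = 0.0485) and −1.55 (adjusted p = 0.0110). The interaction over PTZ0 also passed it without the first (−1.43, adjusted p = 0.0474) or the third CBP-ifKO PTZ0 library (−1.45, adjusted p = 0.0487). Neither interaction passed it in any other of the 11 fits of each test that left out 1 library. Over all 18 alternatives of each test, Gadd45b was called in 2 over Sal and in 6 over PTZ0. For Gadd45a the values were −0.39 (SE 0.638) and 0.18 (SE 0.601), and neither was called.

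Within each treatment, CBP-ifKOs were compared with controls. In PTZ45, Gadd45g was lower by 3.36 on the log2 scale in CBP-ifKOs (log2 fold change −3.36, SE 0.218, adjusted p = 1.47e-50) and Gadd45b by 1.58 (−1.58, SE 0.263, adjusted p = 4.83e-07), that is 0.0972-fold and 0.336-fold the control level. These were 2 of 3 members, where 2.82% of 15224 genes were called lower, and the libraries of both genes did not overlap, as in 32.6% of the genes averaging 10 or more. Gadd45a differed by −0.04 (SE 0.513) and had no adjusted p from DESeq2 because of its low mean. In Sal neither Gadd45b nor Gadd45g was called (2.04% of 15004 genes were), and Gadd45a had no adjusted p. The difference was −0.50 (SE 0.251, unadjusted p = 0.0479, adjusted p = 0.456) for Gadd45b, −0.31 (SE 0.276, adjusted p = 0.813) for Gadd45g and 0.34 (SE 0.484) for Gadd45a. Gadd45b and Gadd45g were lower in all 3 CBP-ifKO Sal libraries than in the 3 Control Sal libraries, and 19.8% of the genes averaging 10 or more did not overlap there. In PTZ0 the differences were −0.26 (SE 0.283, adjusted p = 0.717) for Gadd45b, −0.08 (SE 0.276) for Gadd45g and −0.22 (SE 0.444) for Gadd45a, and only Gadd45b had an adjusted p, so that no call could be made for the other two (6.68% of 12752 genes were called). All 3 members overlapped, against 25.1% of the genes averaging 10 or more that did not.

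With treatment as a term and all 17 libraries, Gadd45b was lower in CBP-ifKOs by 0.76 (−0.76, SE 0.172, adjusted p = 0.000180) and Gadd45g by 1.13 (−1.13, SE 0.405, adjusted p = 0.0311), where 11.5% of 18682 genes were called lower. This model holds 1 genotype difference for the 3 treatments. For Gadd45g the adjusted p rose to 0.0731 or 0.0749 without 1 of the Control PTZ45 libraries, and to between 0.0764 and 0.0937 without 1 of the CBP-ifKO PTZ45 libraries. Gadd45b remained called without any single library. Gadd45a differed by 0.03 (SE 0.211, adjusted p = 0.940).

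**Figure D2:**
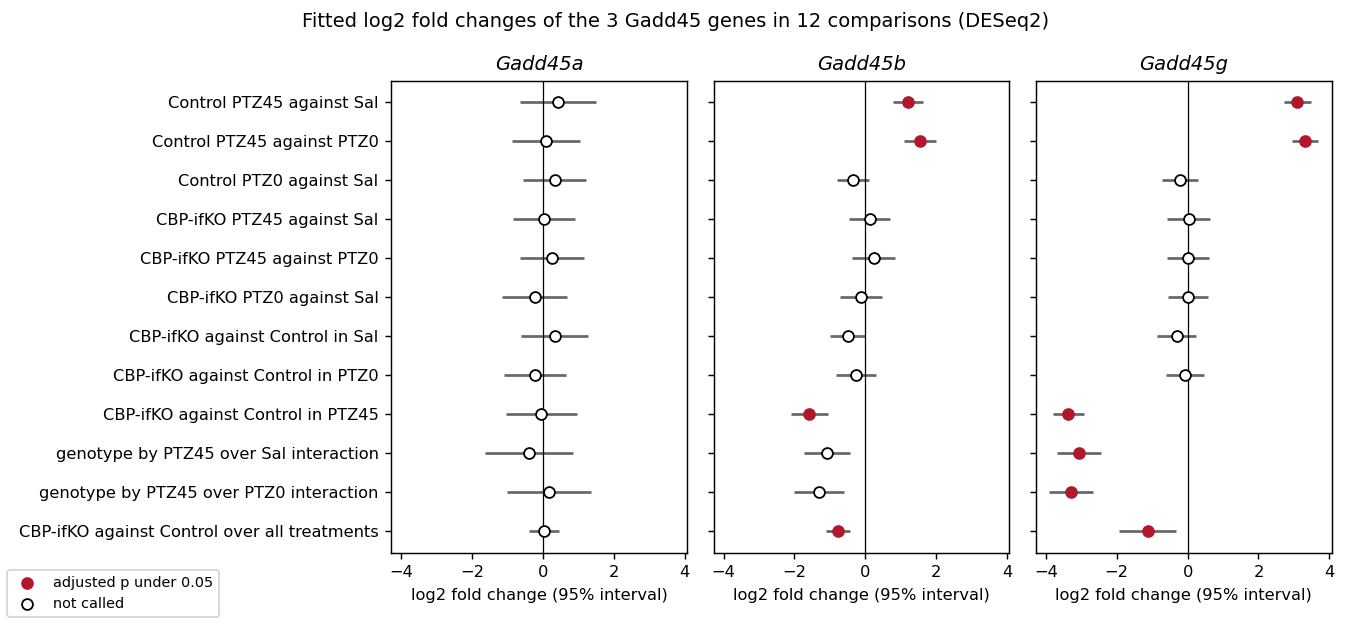
Fitted log2 fold changes (DESeq2) of the 3 genes in the 12 comparisons, with bars for the 95% interval, filled points for an adjusted p under 0.05 and open points otherwise. Gadd45g lies beyond 3 in size in the pair comparisons with the PTZ45 controls and in the interactions and is −1.13 over all treatments, Gadd45b is called in the same pair comparisons and over all treatments but not in the interactions, at smaller values, and the intervals of Gadd45a include 0 throughout.

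Each group was sequenced in 1 lane, so that the lane and the group cannot be told apart in comparisons of 2 groups from different lanes or in the interactions. The genotype difference over all treatments could be fitted with the lane as a further term, in a model with as many coefficients as groups, so that a difference between genotypes in the PTZ response goes into its genotype and lane terms. There the log2 difference was −3.59 for Gadd45g (SE 0.384, DESeq2 adjusted p = 1.73e-17), −1.80 for Gadd45b (SE 0.407, adjusted p = 0.00219) and 0.52 for Gadd45a (SE 0.707, no adjusted p). Of all 15643 genes with an adjusted p, 132 were called lower and 3 higher in that fit. This fit was chosen with the values already known. Within lane 4, Control PTZ45 and CBP-ifKO Sal differ in genotype and treatment together. There Gadd45g stood at 516 ± 65.8 (n = 2) against 48.6 ± 2.603 (n = 3), Gadd45b at 175 ± 11.1 against 53.6 ± 4.38 and Gadd45a at 22.02 ± 1.13 against 20.5 ± 2.76. In lanes 3 and 5, which hold no PTZ45 controls, no member was called between groups.

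The ratio of 1 member to another within a library does not depend on the scaling of libraries. In the 2 Control PTZ45 libraries, Gadd45g had 3.07 and 2.80 counts for each count of Gadd45b, after 0.5 was added to both. In the 6 Control Sal and PTZ0 libraries this ratio ran from 0.678 to 1.13, without overlap. On the log2 scale the mean ratio was 1.55 ± 0.0933 (SD, n = 2) in Control PTZ45 and −0.26 ± 0.310 (n = 6) in the other controls, a difference of 1.81. The corresponding differences were 2.88 for Gadd45g over Gadd45a and 1.07 for Gadd45b over Gadd45a, and neither overlapped. In an exact permutation test, two-sided, each of these 3 gave p = 0.0714 (0.143 after Benjamini-Hochberg adjustment over the 6 ratios tested), which is the smallest p that 2 against 6 libraries allow. In CBP-ifKO mice the same ratios overlapped between PTZ45 and the other libraries. Their differences were −0.20, −0.17 and 0.02, with exact permutation p of 0.524, 0.476 and 0.881, where 3 against 6 libraries allow a smallest p of 0.0238.

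**Figure D3:**
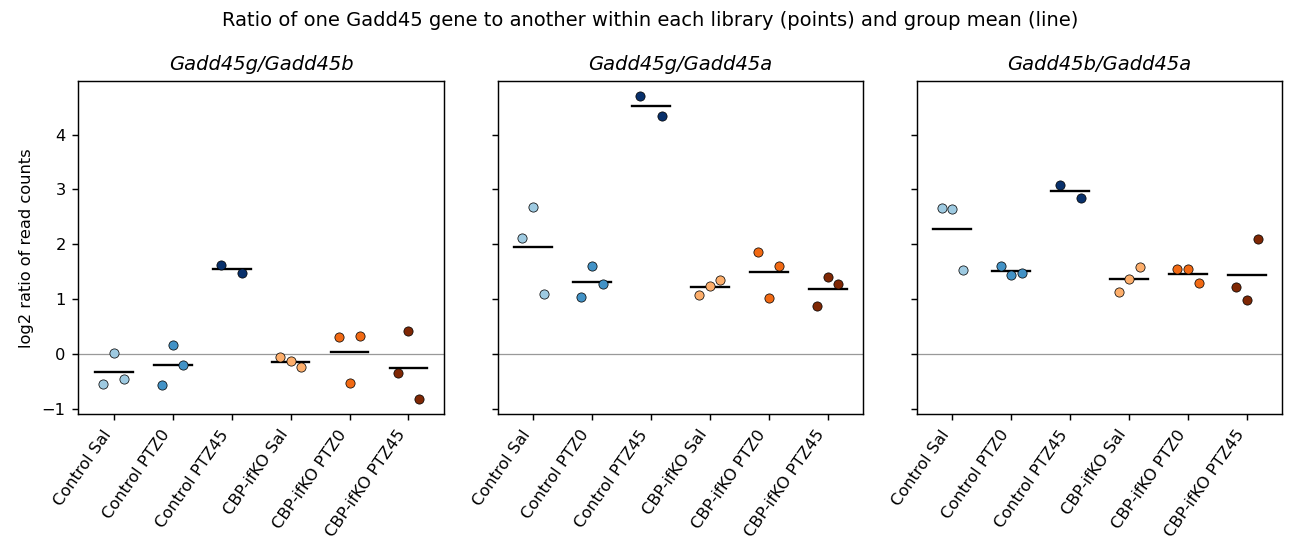
Log2 ratio of the read counts of 1 Gadd45 gene to another within each of the 17 libraries (points) and group mean (line), after 0.5 was added to each count. In Control PTZ45 the ratio of Gadd45g to Gadd45b averages 1.55, against group means from −0.32 to 0.03 elsewhere.

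Genes around the members were examined for each locus. None of the 6 nearest coding genes, Gng12 and Serbp1 at Gadd45a, Lmnb2 and Gng7 at Gadd45b, and Sema4d and Diras2 at Gadd45g, was called in controls between PTZ45 and Sal, with log2 differences from −0.37 for Lmnb2 to 0.14 for Sema4d. Of 17367 genes tested there, 163 were called higher and 41 lower. None of the 6 was called in the interaction over Sal either, where 0.329% of all genes tested were called lower. E230016M11Rik, which overlaps Gadd45a, differed by −0.08 in controls (SE 0.246, adjusted p = 0.994). Over all treatments, Gng7, a G protein subunit, was lower in CBP-ifKOs by 0.24 (−0.24, adjusted p = 0.00273) and Diras2, a small GTPase, by 0.35 (−0.35, adjusted p = 1.27e-20). In that comparison 11.5% of all genes tested were called lower.

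Pathway lists, 6 in number, held 70 genes of the processes in which Gadd45 proteins act. They were chosen with earlier results of these data known, so that their counts beside all genes are a description only. In controls, 5 of the 65 that had an adjusted p were called between PTZ45 and Sal, all higher, beside the 0.939% called higher among all genes, with a median log2 difference over the lists of 0.06 against 0.01 over all genes tested. Among growth arrest and DNA damage genes and p53 targets, 2 of 16 rose, namely Ppp1r15a (Gadd34, a phosphatase subunit of the stress response) by 2.20 (SE 0.193, adjusted p = 2.14e-27) and the antiproliferative gene Btg2 by 3.95 (SE 0.120, adjusted p = 2.51e-233). Among known upstream regulators of the family, 3 of 16 rose, namely Npas4 by 6.16 (SE 0.501), Egr1 by 2.46 (SE 0.326) and Per1 by 1.21 (SE 0.143). Npas4 and Egr1 are activity-dependent transcription factors and Per1 is a clock gene that is also induced by activity. None of the 14 MAP kinase genes, 14 genes of DNA methylation and demethylation and 7 cell cycle partners with an adjusted p was called. Bdnf, the neurotrophin, and Fgf1, a growth factor, were not called either, with 0.37 and 0.11.

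Against PTZ0 the same 5 genes and Atf4, a transcription factor of the integrated stress response (0.29, SE 0.0823, adjusted p = 0.0316), were called higher, 6 of 65 beside 1.18% of all genes. In CBP-ifKO mice 3 of 67 list genes were called between PTZ45 and Sal, all higher (0.294% of all genes were called in either direction), namely Npas4 by 2.28 (SE 0.277), Btg2 by 1.29 (SE 0.178) and Egr1 by 0.71 (SE 0.134), and these 3 were also the ones called against PTZ0. Ppp1r15a and Per1 were not called there, with log2 differences of 0.22 and 0.09. In the interaction over Sal, 5 of 67 list genes were called, all lower (0.329% of all genes were), with −3.88 for Npas4, −2.66 for Btg2, −1.98 for Ppp1r15a, −1.77 for Egr1 and −1.12 for Per1. Gadd45g, at −3.07, lay between Npas4 and Btg2.

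**Figure D4:**
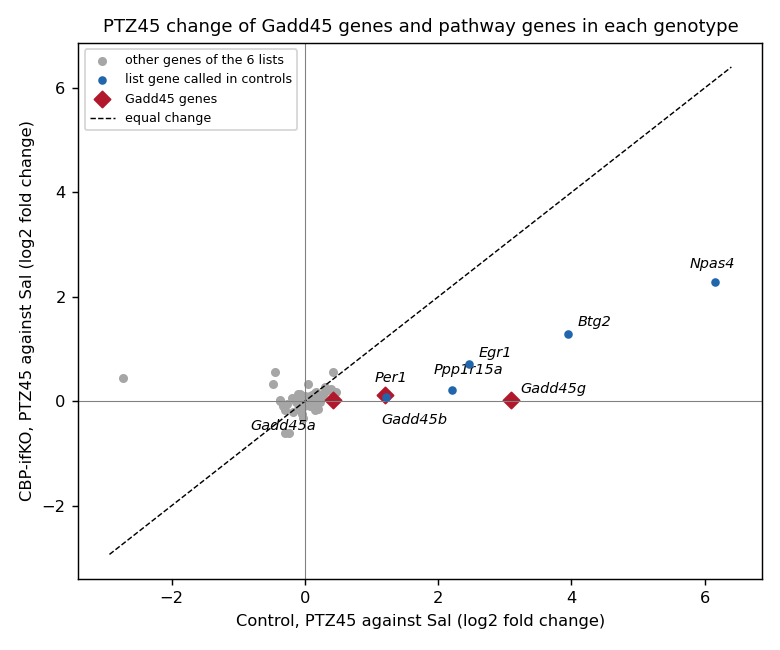
Log2 fold change between PTZ45 and Sal in controls (x axis) and in CBP-ifKOs (y axis) for 70 pathway genes and the 3 Gadd45 genes, with a dashed line for equal change. Gadd45g, Gadd45b, Ppp1r15a and Per1 lie near 0 on the y axis, while Npas4, Btg2 and Egr1 lie above 0 and below the line.

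Between genotypes within a treatment, the called list genes were all lower in CBP-ifKOs. In Sal they were Bdnf and Btg2 (−0.61), 2 of 58, beside 2.04% of all genes tested (266 called lower and 40 higher). In PTZ0 they were 6 of 56, beside 6.68% of all genes tested (670 called lower and 182 higher), namely Bdnf, Per1 (−0.48), Smad3 (−0.38), a transcription factor of TGF-beta signaling, Mapk8ip1 (−0.29), Atf4 (−0.22) and Mapk10 (−0.17). In PTZ45 they were 10 of 60, beside 2.82% of all genes, and 6 of these were upstream regulators, led by Npas4 (−4.51), Egr1 (−1.61), Per1 (−1.31) and the serum response factor Srf (−0.54). Over all treatments, 5 of 66 list genes were called higher in CBP-ifKOs and 16 lower, beside 7.76% and 11.5% of all genes tested. With the lane as a term, 0 of 60 were called higher and 6 lower, namely Npas4, Btg2, Ppp1r15a, Egr1, Per1 and Bdnf, beside 3 higher and 132 lower of all 15643 genes. There a genotype difference in the PTZ response goes into the genotype and lane terms, so the genotype term is not a genotype difference over all treatments. Among upstream regulators, Atf4 (−0.27 without and −0.37 with the lane) and Srf (−0.31 and −0.55) lost their call with larger values. Smad3 (−0.33 and −0.22) and Stat3 (−0.17 and −0.074) lost it with smaller ones. In the fit without the lane, 6 of 14 genes of the MAP kinase list were called, Mapk8ip1 (−0.24), Mapk10 (−0.20), Map2k4 (−0.19), Mapkapk2 (−0.18), Map3k5 (−0.16) and Mapk14 (−0.16), all lower, among them the neuronal JNK Mapk10 and its scaffold Mapk8ip1. With the lane none of these was called (adjusted p = 0.256 to 0.999 by DESeq2), with values of −0.25 for Mapk10, −0.27 for Map2k4, −0.28 for Mapk14, −0.11 for Map3k5, −0.10 for Mapk8ip1 and 0.13 for Mapkapk2 (SE 0.0898 to 0.196). In the list of DNA methylation genes, again without the lane, Dnmt3b (0.73), the dioxygenase Tet1 (0.23), the repair nuclease Ercc4 (0.18) and Dnmt3a (0.09) were higher and Ing1, a partner of Gadd45a in demethylation, was lower (−0.27). Cdkn1a, the cell cycle inhibitor p21, was lower (−1.01, SE 0.239) and Trp53 higher (0.36, SE 0.0973) in the same fit. With the lane none of these 7 genes was called, and Cdkn1a was 0.0015 (SE 0.804, no adjusted p), Trp53 0.26 (SE 0.331), Ercc4 −0.0032, Dnmt3a −0.038, Tet1 0.092, Ing1 −0.13 and Dnmt3b 1.16 (SE 0.769, no adjusted p). Bdnf was lower in CBP-ifKOs in Sal (−0.73, SE 0.116), in PTZ0 (−0.86, SE 0.106) and in PTZ45 (−0.88, SE 0.129), whereas Fgf1 was not called in any of the 12 comparisons. Cell type markers also moved with the genotype. All 4 CA1 pyramidal cell markers were lower over all treatments, and their summed level ran from 2654 to 3501 normalized counts in CBP-ifKOs and from 3864 to 4678 in controls, while the sum of 3 excitatory neuron markers overlapped (29688 to 38800 and 25783 to 33922). Of the CA3 markers 3 of 4 were lower, with sums of 2482 to 3002 in CBP-ifKOs and 3192 to 3593 in controls, and both oligodendrocyte precursor markers were lower, with sums of 953 to 1189 and 1233 to 1402. In the other lists, 2 of 5 interneuron, 1 of 4 astrocyte and 2 of 5 dentate granule cell markers were lower and 1 dentate marker, Prox1, was higher. In the fit with the lane, 2 of the 40 markers with an adjusted p were called, Wfs1 (CA1) and C1ql2 (dentate), both lower, beside 132 lower and 3 higher of all 15643 genes. Of those that lost their call, the CA1 markers Fibcd1 (−0.44 without and −0.58 with the lane), Mpped1 (−0.49 and −0.55) and Pou3f1 (−0.29 and −0.33) had larger differences with the lane. So had the CA3 markers Cpne4 (−0.44 and −0.53), Grik4 (−0.18 and −0.26) and Elavl2 (−0.17 and −0.24) and the interneuron markers Gad1 (−0.14 and −0.19) and Sst (−0.28 and −0.33). The precursor marker Pdgfra (−0.30 and −0.29), the astrocyte marker Slc1a3 (−0.18 and −0.16) and the dentate marker Tdo2 (−0.96 and −0.84) had differences of similar size. The other precursor marker, Cspg4 (−0.31 and −0.18), and Prox1 (0.26 and 0.079) had smaller ones. The part of the markers in the differences of the Gadd45 genes between genotypes was not tested. No marker of the 11 cell types was called between PTZ45 and Sal in either genotype.

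The genes whose pattern was most like each member were sought by Pearson's r of log2(normalized count + 1) over the 17 libraries, among 13041 genes averaging 50 or more. For Gadd45g they were Rgs2, a regulator of G protein signaling (r = 0.963), Ppp1r15a (0.956), the transcription factor Egr3 (0.955), the unnamed gene model Gm13889 (0.952) and the cyclooxygenase Ptgs2 (0.949). For Gadd45b they were Gm13889 (0.942), the transcription factor Junb (0.941), the kinase Plk2 (0.936), the GTPase Rheb (0.933) and the antiproliferative gene Btg1 (0.933). These values rest largely on the 2 Control PTZ45 libraries, which stand apart in all of these genes. Rgs2, for example, was at 1368 ± 37.3 normalized counts in Control PTZ45 and at group means from 314 to 403 elsewhere, and Junb at 1380 ± 210 against 110 to 242. For Gadd45a the highest values were lower, from 0.770 for Gm42970 to 0.736 for Rpgrip1l, with the lipid desaturase Scd2, Pdzd8 and the cochaperone Dnajc7 between them. Between the members themselves r was 0.866 for Gadd45b and Gadd45g, 0.159 for Gadd45a and Gadd45g and 0.147 for Gadd45a and Gadd45b.

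**Figure D5:**
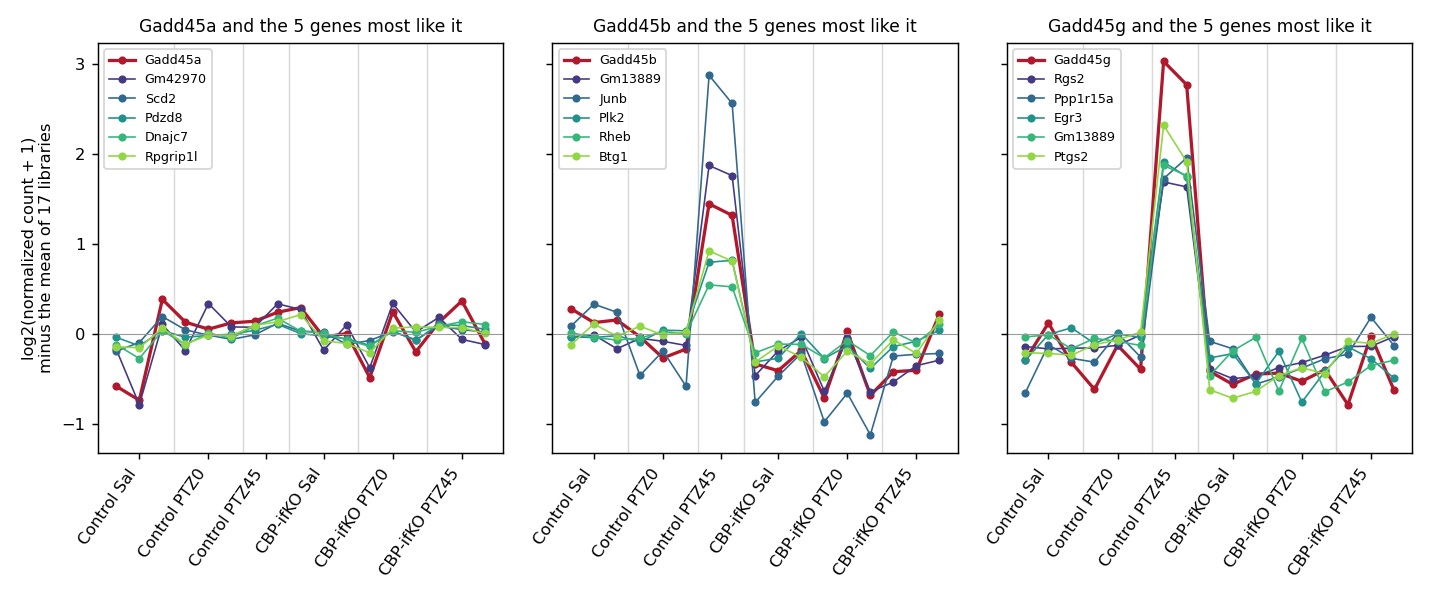
Deviation of log2(normalized count + 1) from the mean of the 17 libraries for each member and the 5 genes most like it, with libraries on the x axis in the order of the groups and lines drawn only to guide the eye. The peak at Control PTZ45 is shared by the genes like Gadd45b and Gadd45g, and no such peak is seen for Gadd45a.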

How the data were processed

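Hippocampal RNA of 17 mice was sequenced in 1 library each. Per the labels and the methods of the study, the authors trimmed the reads with Trim Galore 0.6.4, aligned them with STAR 2.6.1 to GRCm38, kept reads with a mapping quality over 10 and counted them on exons of Ensembl release 99 with Rsubread. The deposited values are raw read counts, with no normalization. Whether the strand was used is not given in the sources used here. Gene lengths deposited with the counts served for values per kilobase. The table has 1 column of counts, named in the manner of the Control PTZ45 columns, that matched no sample and was used in no step, so that this group has 2 libraries here.

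Genes with at least 1 count in the libraries compared were tested with the two-sided Wald test of DESeq2 1.42.0 in R 4.3.3, the test that the methods of the study name. Pairs of groups were fitted alone, interactions on 4 groups and the genotype over all treatments on 17 libraries. A gene was called at an adjusted p under 0.05, with independent filtering, which left some genes of low mean without an adjusted p. Values in the text are normalized counts of 1 scaling over all libraries. Exact permutation tests were run in scipy 1.17.1. The fits were tested on simulated counts. Errors are SDs over libraries. The p-values of the fits rest on a spread between animals that is pooled over the groups fitted and moderated over genes. They do not measure variation between lanes.

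The members, the pathway and marker lists and the tests were chosen with earlier results of these data known. The text names the 3 members, Crebbp and Esr1, the called genes of each pathway list (up to 4 per comparison by absolute log2 fold change), Bdnf and Fgf1, the 5 genes most like each member and the genes beside each locus. Fos and the other called genes of the pathway lists were named after their values had been seen. Alternatives were edgeR 4.0.16 with TMM, TMM size factors, a filter of 10 counts in 2 libraries, 1 fit of all libraries, the replicate number as a block and each library left out. A correction for GC content, edgeR with that filter and a lane term were added after the data had been seen. Symbols and positions came from GENCODE M21, which held 99.6% of the gene identifiers, and upstream sequences from RefSeq (all 3 members matched).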

Additional observations from a re-analysis of the deposited data

Results flagged for a closer look

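The PTZ45 response of Gadd45g differed between the genotypes by a test of the difference itself. The interaction was −3.07 on the log2 scale over Sal (DESeq2 adjusted p = 4.41e-19) and −3.29 over PTZ0 (adjusted p = 1.29e-22), and the 2 tests share the PTZ45 libraries. It was called in each of 18 alternatives of each test, with values from −3.35 to −2.91 over Sal and from −3.57 to −3.13 over PTZ0. The 2 Control PTZ45 libraries lay above all 15 others. No group had the 4 libraries needed to look for an outlying sample.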

How the results depend on the processing

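Of 520 alternative values of 36 results on the members, 480 kept their direction and gained or lost no call, 8 lost and 8 gained a call and 24 turned in sign. The 480 include values with no adjusted p, which have no side of the threshold: for Gadd45a between genotypes in Sal and in PTZ0, 3 of 13 alternatives gave one. Gadd45g was called under each alternative in controls between PTZ45 and Sal (12) or PTZ0 (11), between genotypes in PTZ45 (12) and in both interactions (18 each), and Gadd45b in 10 of 12, 11 of 11 and 12 of 12 for the first 3 of these. Gadd45b in controls between PTZ45 and Sal was 1.19 with the replicate number as a block (adjusted p = 0.247 by DESeq2), and 1.13 to 1.26 with each library left out. Its interaction over Sal was −1.08 by edgeR (adjusted p = 0.0461; 0.200 with the filter on low counts), and −1.33 to −0.97 with each library left out. Over PTZ0 it was −1.30 by edgeR (adjusted p = 0.00163; 0.147 with the filter), −1.31 in 1 fit of all libraries (0.0236), −1.36 with the GC correction (0.0496), and −1.55 to −1.02 with each library left out. Gadd45g over all treatments was −1.09 with the block (adjusted p = 0.0567) and −1.27 to −0.89 with each library left out. The cause of these shifts was not tested.

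Signs turned only in differences that were not called. With the block, Gadd45g in CBP-ifKOs was −0.019 between PTZ45 and Sal and −0.016 between PTZ45 and PTZ0, and Gadd45a between genotypes in PTZ45 was 0.061. With the GC correction, Gadd45g between genotypes in PTZ0 was 0.0069. With each library left out, CBP-ifKO PTZ45 against Sal ran from −0.10 to 0.16 for Gadd45a, −0.12 to 0.24 for Gadd45b and −0.25 to 0.18 for Gadd45g, and PTZ45 against PTZ0 from −0.00044 to 0.53 for Gadd45b and −0.26 to 0.17 for Gadd45g. CBP-ifKO PTZ0 against Sal ran from −0.41 to 0.012 for Gadd45b and −0.025 to 0.049 for Gadd45g. The genotype difference ran from −0.20 to 0.053 for Gadd45g in PTZ0, −0.18 to 0.069 for Gadd45a in PTZ45 and −0.049 to 0.13 for Gadd45a over all treatments. The log2 ratio differences in CBP-ifKOs ran from −0.31 to 0.25 for Gadd45b over Gadd45a and −0.53 to 0.091 for Gadd45g over Gadd45b.

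Replicate numbers did not pair the libraries. The correlation of deviations between same-numbered libraries ran from −0.523 to 0.532 (median −0.0606 over 40 pairs; 0.0308 for other numbers). The number of genes called ranged over all alternatives from 73 to 607 around 204 in controls between PTZ45 and Sal, 94 to 773 around 225 between PTZ45 and PTZ0, 102 to 972 around 468 between genotypes in PTZ45, 38 to 121 around 69 and 50 to 185 around 82 in the interactions over Sal and PTZ0, 122 to 828 around 306 and 327 to 1428 around 852 between genotypes in Sal and PTZ0, and 3141 to 3747 around 3606 over all treatments, apart from 135 with the lane as a term, a fit added after the data had been seen that leaves fewer degrees of freedom. With 1 library left out, it was 127 to 620 between genotypes in Sal and 327 to 913 in PTZ0. In CBP-ifKOs it ranged from 4 to 218 around 58 between PTZ45 and Sal, 8 to 101 around 23 between PTZ45 and PTZ0 and 0 to 21 around 4 between PTZ0 and Sal, and in controls from 0 to 85 around 3 between PTZ0 and Sal (0 to 20 with 1 library left out). The 9 to 37 reads of Gadd45a per library and the 2 Control PTZ45 libraries limit the precision.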
